A study of Mus musculus with 10 samples.

Results

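The VEGF ligands and receptors measured in these mouse ovaries were 9 genes, chosen by name: the ligands Vegfa, Vegfb, Vegfc and Pgf, the receptor kinases Flt1, Kdr and Flt4, and the co-receptors Nrp1 and Nrp2. All 9 of the 55487 genes in the table passed the filter on low counts, together with 18956 genes in all. The ovaries came from female C57BL/6J mice. Control mice (n = 4) were 8 weeks old. Aged mice (n = 3) and Aged+CF mice (n = 3) were 11 months old by the sample labels and 10 months old by the study's methods. Aged+CF mice had received CEFFE, a cell-free liquid fraction of emulsified fat tissue that holds its soluble proteins, as 200 μL at 3 μg protein per μL into the tail vein every 2 days for 2 weeks. Control and Aged mice had received saline in its place. Mice of every group had also been given 10 IU of PMSG, a gonadotropin that drives follicle growth, 48 h before collection, so each level below is that of a stimulated ovary. Naturally aged mice stand here for ovarian ageing without any transgene. Between 15761789 and 21318254 reads were counted per ovary.

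VEGF ligands are secreted dimers that bind receptor kinases on endothelial cells and drive the growth, survival and permeability of vessels. Kdr, also called VEGFR2, carries most of the signal of Vegfa. Flt1, or VEGFR1, binds Vegfa, Vegfb and Pgf tightly with a weak kinase and also exists as a soluble form that holds ligand back. Flt4, or VEGFR3, is the receptor of Vegfc and is best known from lymphatic vessels. The neuropilins Nrp1 and Nrp2 bind VEGF ligands beside the kinases, and class 3 semaphorins as well. In the ovary, granulosa and luteal cells make Vegfa, and the corpus luteum is among the most densely vascularized tissues of the adult body.

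Kdr and Flt1, both receptor kinases, rose in Aged ovaries. Kdr was 1.78-fold and Flt1 1.91-fold higher in Aged than in Control, each with no overlap between the groups, and these were the only members called a differentially expressed gene (DEG) in any of the 3 comparisons with all ovaries. Vegfa was 1.89-fold higher on average with a wide spread and did not pass the test. In Aged+CF the 3 genes stood between the other groups on average, and none of the differences from Aged passed at adjusted p. Nrp2 behaved otherwise, since it lay higher in Aged+CF than in every Aged and Control ovary, by 1.40-fold and 1.34-fold, and these differences did not pass either. A DEG was a gene with a fold change of at least 1.5 and an adjusted p under 0.05, from edgeR's quasi-likelihood test fitted to all 10 ovaries. Genes counted or named at unadjusted p also had a fold of at least 1.5, unless stated otherwise.

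The sequences upstream of the 3 genes that were high in Aged, and of Nrp2, are given so that their make-up can be compared. They are from RefSeq on GRCm38.p6, which held a start for 9 of the 9 members, and each ends just before the more upstream of the RefSeq and GENCODE starts. The stretch is chr17:46032378-46032627 for Vegfa, chr5:147726012-147726261 for Flt1 and chr5:75978459-75978705 for Kdr, each on the minus strand, and chr1:62703067-62703284 on the plus strand for Nrp2. Capitals mark GGAAG or its reverse complement, the core bound by ETS factors, a family that includes regulators of endothelial genes.
Vegfa: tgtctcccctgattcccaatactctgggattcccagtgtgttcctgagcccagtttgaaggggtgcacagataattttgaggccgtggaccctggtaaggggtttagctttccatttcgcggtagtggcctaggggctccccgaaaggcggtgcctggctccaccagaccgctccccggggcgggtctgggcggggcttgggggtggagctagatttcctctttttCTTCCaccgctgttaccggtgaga
Flt1: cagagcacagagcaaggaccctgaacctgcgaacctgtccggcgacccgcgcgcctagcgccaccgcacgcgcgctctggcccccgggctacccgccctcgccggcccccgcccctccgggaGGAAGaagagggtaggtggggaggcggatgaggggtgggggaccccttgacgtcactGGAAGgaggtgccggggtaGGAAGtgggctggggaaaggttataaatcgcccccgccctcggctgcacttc
Kdr: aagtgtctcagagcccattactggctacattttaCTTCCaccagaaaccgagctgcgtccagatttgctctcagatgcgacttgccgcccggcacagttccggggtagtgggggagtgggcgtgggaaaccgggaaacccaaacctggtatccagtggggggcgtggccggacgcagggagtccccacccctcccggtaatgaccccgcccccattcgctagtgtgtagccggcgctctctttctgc
Nrp2: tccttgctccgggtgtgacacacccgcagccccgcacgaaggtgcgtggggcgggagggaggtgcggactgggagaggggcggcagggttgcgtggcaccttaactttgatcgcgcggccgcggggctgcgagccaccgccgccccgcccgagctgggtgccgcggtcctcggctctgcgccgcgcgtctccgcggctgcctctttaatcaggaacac
GGAAG was found 3 times in the Flt1 stretch, once each in those of Kdr and Vegfa, and 0 times in that of Nrp2, while 64.1% of the 32851 mouse promoters of 250 bases hold it. The full windows of 250 bases of the other members held 3 matches for Nrp1, 1 for Flt4 and 0 for Vegfb, Vegfc and Pgf. Both strands were searched for each motif. ACGTG, a form of the core bound by hypoxia-inducible factors, was in none of the 9 members' windows of 250 bases. ACGTG was in 16.6% of all promoters. Other forms of that core were not searched for, and the Flt1, Kdr and Nrp2 stretches hold GCGTG or its reverse complement. TATAAA was in the Flt1 stretch alone among the 9 windows and in 12.4% of all promoters. GGGCGG, the GC box, was in the full window of 250 bases of each member and in 32.7% of all promoters. Cut to the bases upstream of both starts, the windows of Pgf (23 bases), Flt4 (84 bases) and Nrp1 (31 bases) held 0. The matches are letters in these windows only, with no binding measured. The stretches held 59.2% (Vegfa), 70.4% (Flt1), 61.5% (Kdr) and 72.5% (Nrp2) of G and C, against a median of 52.4% over all promoters.

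The levels of the 9 genes differed widely from each other. Levels are compared between genes as FPKM, which scales the count by gene length, and the scale keeps each ovary's total rather than the TMM factors. Vegfb had the highest mean level in each group, at 26.1 ± 2.43 FPKM in Control (SD, n = 4), against 25.9 ± 2.98 in Aged (n = 3) and 24.2 ± 1.09 for Aged+CF (n = 3). Pgf was the lowest, at 0.482 ± 0.0773, 0.540 ± 0.00970 and 0.480 ± 0.0890 FPKM, and its count per ovary was between 32 and 57. In Control, Vegfa (11.2 FPKM), Nrp2 (11.2), Kdr (9.34), Nrp1 (7.99) and Flt4 (7.07) followed Vegfb, and neighbours among these overlapped. Vegfc (5.53 FPKM) and then Flt1 (3.43) came below without overlap between neighbours. The order was different in the other groups. In Aged, Kdr ranked after Vegfb and Vegfa at 15.0 ± 2.77 FPKM, above each Nrp2 value, and Vegfb and Vegfa overlapped. In Aged+CF, Nrp2 stood second at 14.6 ± 0.486 FPKM, overlapping with Vegfa. Among the genes tested, Vegfb had a higher level than 91.5% in Control and Pgf than 15.0%.

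**Figure D1:**
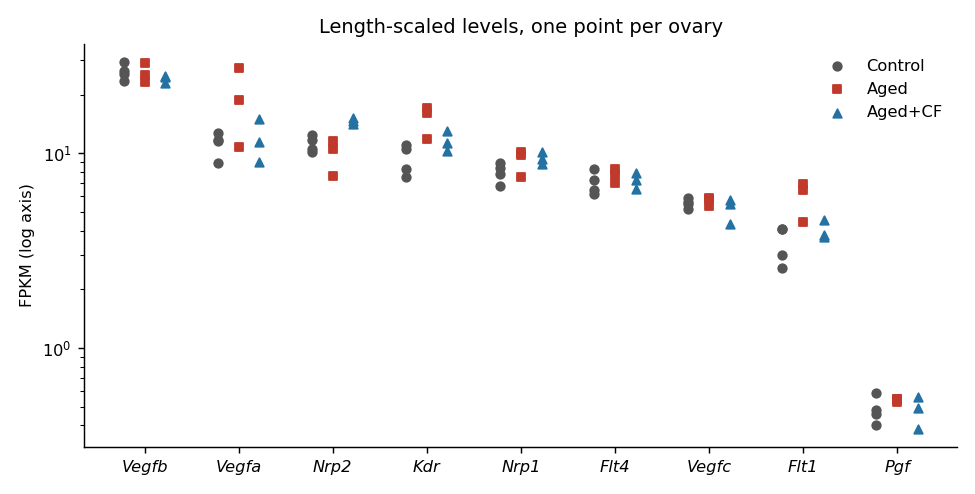
FPKM on a log axis for the 9 genes (ordered by Control mean), 1 point per ovary (grey circles Control, red squares Aged, blue triangles Aged+CF). Vegfb lay between 23.0 and 29.3 FPKM, Pgf between 0.385 and 0.586, and the Aged points of Kdr and Flt1 lie above those of Control.

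Among the ligands, Vegfa set itself apart by its spread in Aged. The Aged group was also the most variable over all genes. The coefficient of variation between ovaries that edgeR fits in common to all genes was 0.378 in Aged, against 0.209 in Control and 0.193 in Aged+CF. Vegfa (ENSMUSG00000023951, chr17:46016993-46032369 on GRCm38) was at 83.0, 92.3, 82.6 and 64.4 CPM in Control replicates 31, 32, 33 and 34, CPM being counts scaled to library size with TMM factors. In Aged it was at 144, 234 and 79.7 CPM in replicates 31, 33 and 34, and in Aged+CF at 82.4, 112 and 66.7 CPM in replicates 30, 32 and 34. Aged replicate 33 was the highest of all ovaries and Aged replicate 34 lay inside the Control range, so Aged overlapped both other groups. The log2 fold change was 0.92 ± 0.31 (SE, 95% interval 0.23 to 1.61) in Aged vs Control with an adjusted p of 0.0707 in edgeR's quasi-likelihood test. The difference of Aged+CF from Aged was -0.81 ± 0.34 (-1.56 to -0.06; adjusted p = 0.276). Between Aged+CF and Control it was 0.11 (-0.58 to 0.81). The size of these differences rested on Aged replicates 33 and 34, which moved it in opposite directions. Without Aged replicate 34 the log2 fold changes of Vegfa were 1.27 (adjusted p = 0.00708) and -1.13 (adjusted p = 0.0468), both past the threshold, and without Aged replicate 33 they were 0.51 and -0.37. DESeq2's Wald test also called Vegfa in Aged vs Control (adjusted p = 0.0231).

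The other ligands differed little between groups. Vegfb (ENSMUSG00000024962, chr19:6982473-6987651), a Flt1 ligand linked to metabolism more than to vessel growth, lay between 48.3 and 62.7 CPM over the 10 ovaries, and its log2 fold change was 0.12 (-0.13 to 0.36) in Aged vs Control. For Aged+CF vs Aged it was -0.19 (-0.45 to 0.07). Vegfc (ENSMUSG00000031520, chr8:54077606-54187096), the lymphatic growth factor, lay between 12.7 and 19.4 CPM, with 0.17 (-0.11 to 0.46) and -0.23 (-0.54 to 0.08). Pgf (ENSMUSG00000004791, chr12:85166635-85177790), a Flt1 ligand first found in placenta, lay between 1.83 and 2.89 CPM, with 0.29 (-0.21 to 0.80) and -0.26 (-0.80 to 0.28). The groups overlapped for each of these ligands in all 3 comparisons. The intervals of Vegfb and Vegfc exclude a fold of 1.5 (0.58 on the log2 scale) in both directions, and that of Pgf does not.

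The receptor kinases Kdr and Flt1 were the members that rose. Kdr (ENSMUSG00000062960, chr5:75932827-75978458) was at 97.5, 71.6, 102 and 77.2 CPM in Control replicates 31 to 34, at 161, 189 and 115 CPM in Aged replicates 31, 33 and 34, and at 106, 126 and 99.2 CPM in Aged+CF replicates 30, 32 and 34. All 3 Aged ovaries stood above the highest Control, and Aged replicate 34 stood below the highest Aged+CF ovary. The means ± SD were 87.0 ± 14.8, 155 ± 37.7 and 110 ± 13.8 CPM. The log2 fold change of Kdr was 0.83 ± 0.18 (0.43 to 1.24; adjusted p = 0.0172) in Aged vs Control, -0.49 ± 0.20 (-0.93 to -0.05; adjusted p = 0.265) in Aged+CF vs Aged and 0.34 ± 0.18 (-0.07 to 0.75; adjusted p = 0.422) in Aged+CF vs Control.

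Flt1 (ENSMUSG00000029648, chr5:147561604-147726011) had the same high and low ovaries in Aged and Aged+CF, at a lower level. It was at 56.6, 36.3, 56.1 and 41.9 CPM in Control replicates 31 to 34, at 103, 108 and 63.5 CPM in Aged, and at 53.3, 65.8 and 53.1 CPM in Aged+CF. The Aged ovaries again exceeded each Control, with Aged replicate 34 nearest to them and below 1 Aged+CF ovary. The log2 fold change was 0.94 ± 0.21 (0.47 to 1.41; adjusted p = 0.0185) in Aged vs Control, -0.67 ± 0.23 (-1.18 to -0.17; adjusted p = 0.216) in Aged+CF vs Aged and 0.27 (-0.21 to 0.74; adjusted p = 0.599) in Aged+CF vs Control. When 1 Aged ovary was left out, the value of Flt1 in Aged+CF vs Aged was -0.59 without replicate 31 (adjusted p = 0.297), -0.54 without replicate 33 (0.383) and -0.89 without replicate 34 (0.046), the last past the threshold. That of Kdr ran from -0.33 without Aged replicate 33 to -0.68 without Aged replicate 34, with no call. The counts are per gene, so the full-length and soluble forms of Flt1 are summed. In a 2-sided exact permutation test of log2 CPM, Kdr and Flt1 each gave p = 0.0286 in Aged vs Control, the smallest that 4 against 3 ovaries allow. Nrp2 gave the same p in that test for Aged+CF vs Control. The same exact permutation test cannot go below 0.1 in Aged+CF vs Aged with 3 against 3, the value that Flt4 and Nrp2 gave.

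The calls of Kdr and Flt1 lay close to the threshold in edgeR's test. DESeq2's Wald test on all ovaries gave adjusted p = 0.000724 for Kdr and 0.000812 for Flt1, and was not run with an ovary left out. Each was lost without Control replicate 32 (adjusted p = 0.0506 for Kdr and 0.0507 for Flt1 in edgeR's test), without Control replicate 34 (0.0524 and 0.0558) and without Aged replicate 33 (0.0511 and 0.0558). Without Aged replicate 31, Flt1 was lost (adjusted p = 0.0544) and Kdr held (0.0456). Their log2 fold changes stayed within 0.69 to 1.04 for Kdr and 0.83 to 1.18 for Flt1 whichever ovary was left out.

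Flt4 (ENSMUSG00000020357, chr11:49609263-49652739) differed by less. It was at 60.6, 52.7, 68.8 and 54.5 CPM in Control, at 69.8, 70.1 and 72.1 CPM in Aged and at 61.3, 56.6 and 68.4 CPM in Aged+CF. On CPM the Aged ovaries formed a narrow band just above the highest ovary of either other group. On FPKM, which leaves out the TMM factors, Aged (7.04 to 8.32) overlapped Control (6.19 to 8.32) and Aged+CF (6.52 to 7.90). The log2 fold change was 0.26 ± 0.11 (0.01 to 0.50; adjusted p = 0.137) in Aged vs Control. It was -0.19 (-0.45 to 0.07; adjusted p = 0.448) for Aged+CF vs Aged, and both intervals exclude a fold of 1.5.

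**Figure D2:**
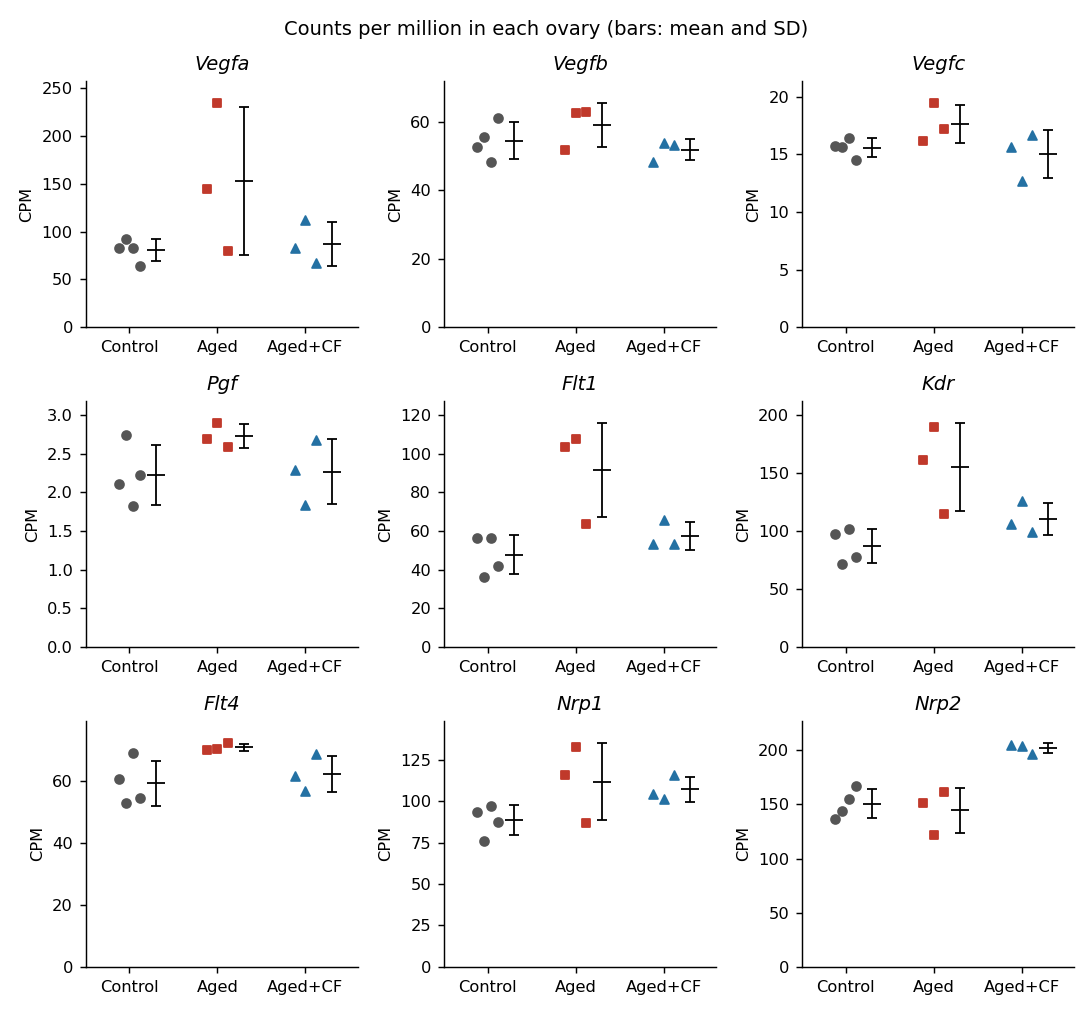
CPM of each gene (1 panel per gene, axes from 0), with 1 point per ovary by group and, beside the points, a bar for the mean and SD. All 3 Aged ovaries exceeded Control for Kdr and Flt1, Vegfa spread from 79.7 to 234 CPM within Aged, and Nrp2 was above 196 CPM in each Aged+CF ovary.

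The neuropilins differed from each other. Nrp1 (ENSMUSG00000025810, chr8:128358604-128503363), which binds Vegfa and semaphorin 3A, was at 93.2, 76.2, 97.2 and 87.2 CPM in Control, at 116, 133 and 87.0 CPM in Aged and at 104, 101 and 116 CPM in Aged+CF. Aged replicate 34 was again inside the Control range, while all 3 Aged+CF ovaries lay above Control on CPM. On FPKM, Aged+CF replicate 32 (8.84) lay below Control replicate 33 (8.89). The log2 fold change was 0.34 ± 0.14 (0.02 to 0.65; adjusted p = 0.135) in Aged vs Control, -0.06 (-0.40 to 0.28; adjusted p = 0.867) in Aged+CF vs Aged and 0.28 (-0.04 to 0.59; adjusted p = 0.404) in Aged+CF vs Control. Without Aged replicate 34 the value in Aged vs Control was 0.53 (adjusted p = 0.0144), at a fold under 1.5, and without Aged replicate 33 it was 0.22 (adjusted p = 0.341).

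Nrp2 (ENSMUSG00000025969, chr1:62703285-62818695), which binds Vegfc and semaphorin 3F, was at 137, 144, 155 and 167 CPM in Control, at 151, 122 and 161 CPM in Aged and at 205, 204 and 196 CPM in Aged+CF. The Aged+CF ovaries lay close together and above all other ovaries, and Aged overlapped Control. The log2 fold change was -0.06 (-0.31 to 0.19; adjusted p = 0.773) in Aged vs Control, 0.48 ± 0.12 (0.21 to 0.75; adjusted p = 0.161) in Aged+CF vs Aged and 0.42 ± 0.11 (0.18 to 0.67; adjusted p = 0.152) in Aged+CF vs Control. DESeq2's Wald test gave adjusted p = 0.0188 and 0.0191 for the latter pair, at folds that stayed under 1.5. Both Aged+CF comparisons use the same Aged+CF ovaries. Of the genes that overlap members in the annotation, the antisense gene Gm29083 in Nrp2 had at most 6 counts per ovary and Gm37121, on the same strand, at most 40.

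Counted over the 9 members, 2 were DEGs in Aged vs Control, both higher in Aged, against 11.1% of all genes tested. At an unadjusted p under 0.05 with a fold of at least 1.5, 3 passed (Vegfa, Flt1 and Kdr, higher in Aged), against 18.2% of genes. Flt4 and Nrp1 met the unadjusted threshold alone, at folds under 1.5. The groups of 3 members did not overlap (Flt1, Kdr and Flt4), against 27.5%. Between Aged+CF and Aged, 0 members passed at adjusted p in edgeR's test against 0.00528% of genes, and 0 by DESeq2's Wald test. At unadjusted p with a fold of at least 1.5, 2 passed (Vegfa and Flt1, lower in Aged+CF) against 7.96%. Kdr and Nrp2 met the unadjusted threshold alone, at folds under 1.5. The groups of 2 members did not overlap (Flt4 and Nrp2), against 18.6%. Between Aged+CF and Control, 0 passed at adjusted p against 0.179%, and 0 at unadjusted p with that fold against 7.69%. Nrp2 again met the unadjusted threshold alone, at a fold under 1.5. The groups of 2 members did not overlap (Nrp1 and Nrp2), against 21.9%. The median log2 fold change of the members was 0.29, -0.23 and 0.11 in these comparisons, beside -0.00053, -0.02 and -0.03 over all genes. The fitted difference was positive in Aged vs Control for 8 of 9 members and negative in Aged+CF vs Aged for 8 of 9, with Nrp2 the exception in each, and the comparisons share the Aged ovaries.

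**Figure D3:**
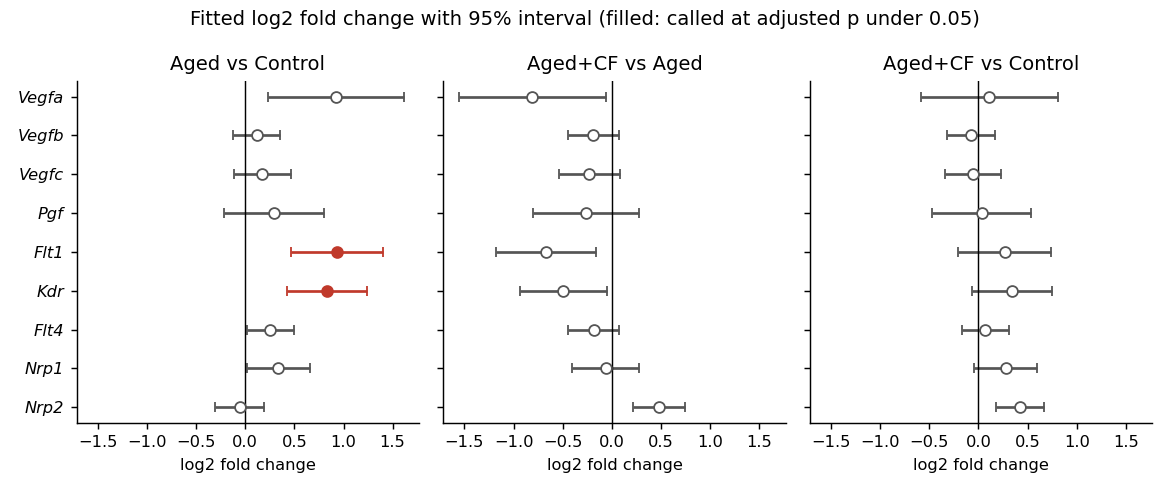
Log2 fold change of each gene with its 95% interval in the 3 comparisons (points, fitted values; filled red, DEGs at adjusted p; the vertical line is no difference). Flt1 at 0.94 and Kdr at 0.83 in Aged vs Control are the filled points, and Nrp2 is the member whose intervals lie above 0 in both Aged+CF comparisons.

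Kdr and Flt1 moved together from ovary to ovary. Flt1 had between 0.338 and 0.430 times the FPKM of Kdr in the 10 ovaries, with means of 0.365, 0.394 and 0.349 in Control, Aged and Aged+CF. After subtracting group means, Pearson's r of log2 CPM over the 10 ovaries was 0.974 between Kdr and Flt1, 0.815 between Nrp1 and Flt1, 0.800 between Nrp1 and Kdr, 0.776 between Kdr and Vegfa, and 0.673 between Flt1 and Vegfa. Nrp2 went the other way, at -0.737 with Vegfa, -0.580 with Nrp1, -0.553 with Kdr and -0.473 with Flt1. These values describe genes measured in the same libraries. By r over all 10 ovaries, group differences included, the 5 genes most like Kdr were Idi1, Plpp3, Flt1, Cyp51 and Hmgcs1 (r between 0.983 and 0.987). Idi1, Cyp51 and Hmgcs1 encode enzymes of sterol synthesis. The 5 most like Vegfa were Nt5c, Mvk, Atp6v1g1, Apoo and Polr2l (0.978 to 0.980), of which Mvk is the mevalonate kinase of the same route.

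Cell type markers moved with these genes, and in whole ovaries fewer cells of a type and less RNA per cell cannot be told apart. All 25 genes of an endothelial list, which holds no VEGF receptor, were fitted higher in Aged than in Control, 10 of them DEGs, with a median log2 fold change of 0.56. Their summed level was 1023 to 1160 CPM in Control, against 1489 to 1713 in Aged and 1084 to 1249 in Aged+CF, with no gene of the list at 0. Gpihbp1, the capillary anchor of lipoprotein lipase, rose by 1.82 on the log2 scale (adjusted p = 0.00723), Plvap, a protein of fenestrated endothelium, by 1.43 (0.0134), Emcn by 1.09 (0.00772) and Mmrn2 by 0.79 (0.0055). Pecam1, which encodes the endothelial adhesion protein CD31, was 1.52-fold higher in Aged (log2 0.61 ± 0.12, adjusted p = 0.0142), and Cdh5, the cadherin of endothelial junctions, gave 0.23 ± 0.11 (adjusted p = 0.197). Pecam1 was at 99.9 to 111 CPM in Aged and 72.4 to 81.4 CPM in Aged+CF. The study's staining of CD31 protein went the other way, lower in Aged and higher after CEFFE, a different measure from RNA of whole ovaries. Of the 25, 24 were fitted lower in Aged+CF than in Aged, 0 passed at adjusted p and 4 at unadjusted p (Emcn, Cd34, Egfl7 and Sox18), with a median of -0.44. Against Control, 0 passed at adjusted p in Aged+CF, and Gpihbp1 and Plvap at unadjusted p.

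On the length-scaled FPKM, Kdr came to 3.26 ± 0.444% of the summed endothelial list in Control, against 4.09 ± 0.738% in Aged and 3.94 ± 0.845% in Aged+CF. For Flt1 the share was 1.20 ± 0.212%, 1.62 ± 0.388% and 1.38 ± 0.297%, and the groups overlapped for both. For Flt4 it was 2.47 ± 0.255%, 2.11 ± 0.240% and 2.45 ± 0.0835%, and the Aged ovaries (1.83 to 2.27%) lay below each Control (2.30 to 2.85%) and Aged+CF ovary (2.36 to 2.52%), so that the Flt4 share was lower in Aged while the mean shares of Kdr and Flt1 were higher. With the endothelial score as a covariate, the log2 fold changes in Aged vs Control were 0.37 for Flt1 and 0.33 for Kdr, and 0 members were called. Relative to group means, Pearson's r with the summed endothelial list over the 10 ovaries was 0.350 for Kdr and 0.318 for Flt1. For the other members it was 0.86 (Vegfc), 0.696 (Flt4), 0.617 (Nrp1), 0.112 (Pgf), 0.0885 (Vegfa), -0.13 (Vegfb) and -0.558 (Nrp2). With group differences included, it was 0.826 for Kdr and 0.83 for Flt1.

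Theca and luteal genes moved with Kdr, Flt1 and Vegfa. The summed level of the 14 genes of that list, which include steroidogenic enzymes, was 8019 to 15750 CPM in Control, against 21846 to 50988 in Aged and 18740 to 29672 in Aged+CF, and 12 of the 14 were DEGs higher in Aged than in Control. In Aged+CF 0 of the 14 differed from Aged at adjusted p, and 2 were lower at unadjusted p. Within Aged the sum was highest in replicate 33 and lowest in replicate 34, the order of Vegfa and Kdr. Pearson's r with this sum after subtracting group means was 0.898 for Kdr, 0.882 for Vegfa, 0.848 for Flt1 and -0.755 for Nrp2 over the 10 ovaries. With the theca and luteal score as a covariate, a setting added after the data were seen, the log2 fold changes in Aged vs Control were 0.15 for Flt1, 0.12 for Kdr and -0.42 for Vegfa, and 0 members were called. Both scores differ between groups themselves, and their part in the results on Kdr, Flt1 and Vegfa was not tested.

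**Figure D4:**
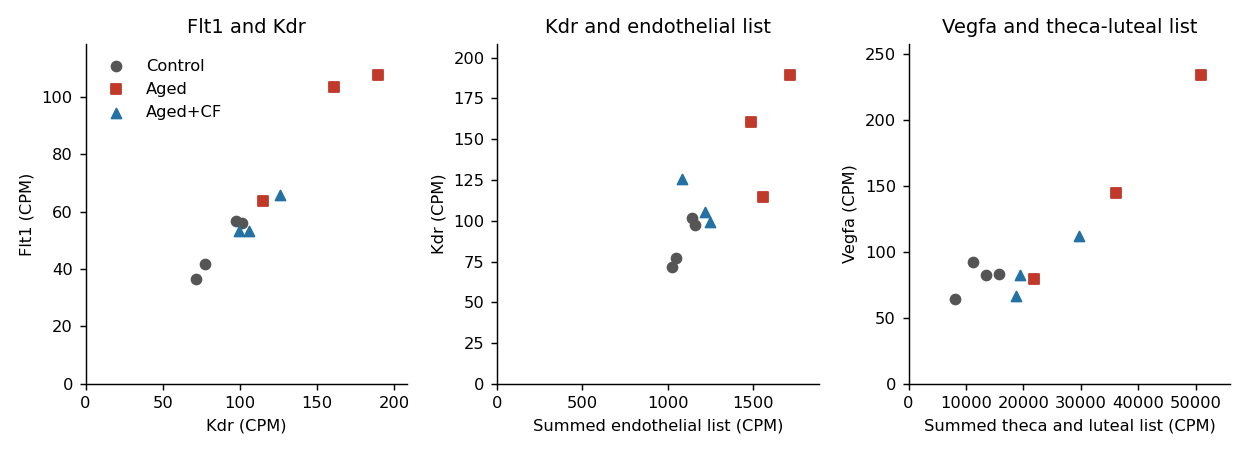
Levels in CPM with 1 point per ovary and axes from 0: Flt1 against Kdr, Kdr against the summed endothelial list, and Vegfa against the summed theca and luteal list. The ovaries lie near a line for Flt1 and Kdr, and the Aged ovary with 79.7 CPM of Vegfa also has the lowest theca and luteal sum of its group.

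Other cell types differed too. All 20 oocyte genes were fitted lower in Aged, 16 of them DEGs, and their sum was 672 to 905 CPM in Control, against 39.9 to 221 in Aged and 265 to 411 in Aged+CF. Of 15 granulosa genes 3 fell (sum 7226 to 10843 CPM in Control and 4429 to 6879 in Aged), of 12 macrophage genes 5 rose (652 to 774 and 1159 to 2527 CPM), and of 6 erythroid genes tested 5 rose (72.6 to 113 and 265 to 639 CPM). Against Aged, 0 genes of these lists passed at adjusted p in Aged+CF by edgeR's test, and at unadjusted p 7 oocyte genes and 1 granulosa gene were higher, and 3 macrophage and 4 erythroid genes lower. Aged replicate 34, the lowest Aged ovary for Vegfa, Kdr, Flt1 and Nrp1, had the lowest oocyte sum and the highest macrophage sum of all ovaries. Genes of the oviduct summed to 485 CPM in Control replicate 33 and 483 in Aged replicate 34, against 29.7 to 156 in the others. The part of these cell types in the members' values was not tested.

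Of 80 further genes of VEGF biology, 10 (12.5%) were DEGs in Aged vs Control, and 14 (17.5%) passed at unadjusted p, shares near the 11.1% and 18.2% of all genes tested. In each comparison with Aged+CF, 0 passed at adjusted p by edgeR's test and 2 by DESeq2's Wald test. At unadjusted p, 5 (6.25%) passed in edgeR's test in each, beside 7.96% of all genes against Aged and 7.69% against Control. Among 8 other ligands and ligand-binding proteins, Esm1, an endothelial proteoglycan known as a target of Vegfa, rose in Aged (log2 1.94 ± 0.52, adjusted p = 0.0334) from 0.890 ± 0.354 to 3.45 ± 1.72 CPM, and was at 3.37 ± 1.87 CPM in Aged+CF. Pdgfc, a related growth factor, fell by 0.62 on the log2 scale (adjusted p = 0.023). Vegfd, the second Flt4 ligand, was at 11.0 ± 1.67 CPM in Control, against 10.2 ± 2.38 in Aged and 7.12 ± 1.70 in Aged+CF, and passed only at unadjusted p in Aged+CF vs Control.

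The class 3 semaphorins, which compete with VEGF ligands for the neuropilins, and their plexins held the largest share of DEGs among the 4 pathway lists. Of 12 semaphorins and plexins, 4 fell and 1 rose in Aged vs Control. Sema3c was at 42.1 ± 17.4 CPM in Aged and 91.4 ± 9.49 in Control (log2 -1.12 ± 0.30, adjusted p = 0.035), Sema3b fell by 1.10 on the log2 scale (adjusted p = 0.0165), Sema3g by 0.98 (0.0301) and the plexin Plxna2 by 0.64 (0.0343). Sema3f, a Nrp2 ligand that restrains vessel growth, rose by 0.79 (adjusted p = 0.0315), from 30.5 ± 9.12 to 52.7 ± 4.54 CPM. Plxna3 was higher in Aged+CF than in Aged at unadjusted p (log2 0.71 ± 0.22, adjusted p = 0.196). Sema3b, Sema3c and Sema3g were lower in Aged+CF than in Control at unadjusted p.

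Of 10 oxygen-sensing genes, 1 was a DEG: Arnt2, a partner of the hypoxia-inducible factors, fell in Aged by 0.74 on the log2 scale (adjusted p = 0.0328), from 91.6 ± 5.19 to 54.9 ± 18.4 CPM, and was at 90.7 ± 11.3 CPM in Aged+CF (adjusted p = 0.178 against Aged). Hif1a, the oxygen-regulated subunit itself, gave -0.05 (adjusted p = 0.672) and Epas1 0.21 (0.268). Of 50 genes of signalling downstream of the receptors, 2 rose in Aged. Mapk3, which encodes the kinase ERK1, was at 158 ± 8.69 CPM in Control and 272 ± 72.8 in Aged (log2 0.79 ± 0.16, adjusted p = 0.0132), and at 179 ± 12.1 in Aged+CF (adjusted p = 0.178 against Aged). Nfatc2, a calcineurin-dependent factor, rose by 0.79 (adjusted p = 0.0308). Prkcb and Nfatc1 passed only at unadjusted p, as did Pik3r1 (higher), Hspb1 and Mapk3 (lower) in Aged+CF vs Aged.

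Markers of other vessel cells were measured as well. Of 8 lymphatic genes, Reln and Pdpn fell in Aged by 0.83 and 0.82 on the log2 scale (adjusted p = 0.039 for both), and the summed list was 352 to 426 CPM in Control, against 290 to 457 in Aged and 349 to 388 in Aged+CF. Of 12 pericyte and smooth muscle genes, 0 were DEGs in any comparison by edgeR's test, and Rgs5 passed at unadjusted p as higher in Aged than in Control (log2 0.62 ± 0.26, adjusted p = 0.138) and in the opposite direction for Aged+CF vs Aged (-0.72 ± 0.29, adjusted p = 0.265).

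**Figure D5:**
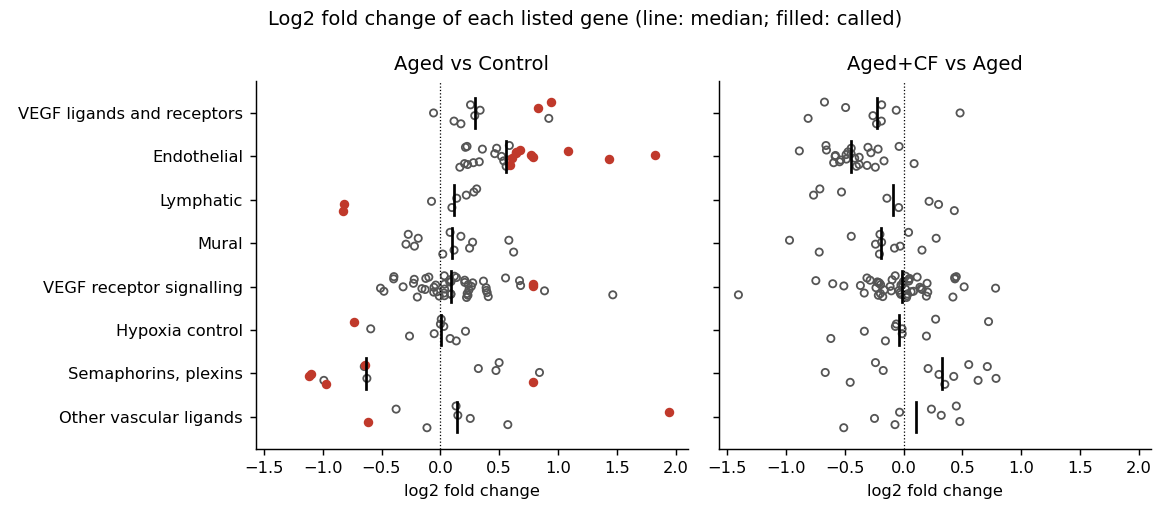
Log2 fold change of every tested gene of 8 lists, for Aged vs Control (left) and Aged+CF vs Aged (right) (open circles, not called; filled red, DEGs at adjusted p; vertical bars, list medians; dotted line, no difference). The endothelial genes lie right of 0 in Aged vs Control with a median of 0.56 and mostly left of it in Aged+CF vs Aged with a median of -0.44, and the semaphorins hold called genes on both sides.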

How the data were processed

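RNA of 10 ovaries, 1 library each, was used, grouped by the labels, with replicate numbers from the titles. Raw read counts per gene, deposited by the authors for every ovary, were made from TopHat alignments by the series text. The submitters' processing notes name GRCm38.p4, TopHat and Cufflinks 2.1.1, and the counting tool and strandedness are not given in the sources used here. The authors also deposited FPKM, which equals the count divided by gene length and the column total (100% of values within 0.1 percent). The labels number the ovaries of a group as separate samples and name no litters or cages, so p-values measure only the spread between these samples. Total counts were 15761789 to 21318254 per ovary, and no 2 libraries of a group were found to be duplicates.

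Genes were kept with edgeR's filter on low counts (18956 of 55487), scaled by TMM and fitted over all 10 ovaries with edgeR 4.0 in R 4.3 (quasi-likelihood F test, Benjamini-Hochberg adjustment over the genes tested). Both adjusted and unadjusted p are used because the study's methods name an adjusted p and its results text a p-value without adjustment named. Positions are from GENCODE M21 on GRCm38. The members, the 13 lists of genes and the tests were chosen with earlier results of these data known. The genes named are the 9 members, Pecam1, Cdh5, up to 4 genes per list for the vascular and pathway lists with the largest fold among those at an unadjusted p under 0.05, a fold of at least 1.5 and a mean of at least 1 CPM, and the 5 genes most like Vegfa and Kdr. Plxna2, Hif1a and Epas1 were added after their values were seen. The scores are means of standardized log2 CPM (prior count 2). The fit was tested on simulated data. Alternatives were no filter, DESeq2 1.42 size factors and Wald test, limma 3.58 on log2(FPKM + 1), only the compared groups, the replicate number as a block, each score as a covariate, and leaving out each ovary in turn.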

Additional observations from a re-analysis of the deposited data

Results flagged for a closer look

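The ratio of Vegfa to Kdr in Control was the only one of 15 group values tested in groups of 4 ovaries in which the extreme ovary stood apart from the rest by Dixon's test. Control replicate 32 had 1.67 times as much Vegfa as Kdr in FPKM, against 1.06 to 1.11 in the other 3 Control ovaries, and its gap to the nearest of them was 0.919 of the whole range, above Dixon's critical value for 4 samples. It had the highest Vegfa (92.3 CPM) and the lowest Kdr (71.6 CPM) of Control. Chance alone puts about 1 in 20 groups past that value. The mean ratio of Control was 1.23 with this ovary and moved by less than its SD without it, beside 1.23 in Aged and 1.02 in Aged+CF.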

How the results depend on the processing

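In Aged vs Control, 2 members were called at adjusted p and 3 at unadjusted p, each at a fold of at least 1.5. The former was 0 with the replicate number as a block, 0 with the endothelial score and 0 with the theca and luteal score as a covariate, and the latter was 0 with either score. Without 1 ovary each the former ranged from 0 to 3. In Aged+CF vs Aged, 0 were called at adjusted p (0 to 2 without 1 ovary, 2 being Flt1 and Vegfa without Aged replicate 34). At unadjusted p, 2 were called (0 to 3 without 1 ovary, 1 with only the compared groups, 0 by limma, with the block or with either score). In Aged+CF vs Control, 0 at unadjusted p became 2 with the block and 2 with the theca and luteal score. Of the 80 pathway genes, without 1 ovary 2 to 13 were called in Aged vs Control (10 with all ovaries), 0 to 2 in Aged+CF vs Aged (3 to 9 at unadjusted p) and 0 to 1 in Aged+CF vs Control (3 to 7 at unadjusted p), and DESeq2's Wald test called 2 in each Aged+CF comparison.

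Signs turned only for values with an adjusted p above 0.05. With the endothelial score the log2 fold changes in Aged vs Control were -0.47 for Vegfc, -0.26 for Flt4, -0.42 for Nrp1 and 0.37 for Nrp2, in Aged+CF vs Aged 0.24, 0.19 and 0.50 for Vegfc, Flt4 and Nrp1, and in Aged+CF vs Control -0.031 for Pgf and -0.066 for Flt4. With the theca and luteal score they were -0.42 for Vegfa, -0.035 for Nrp1 and 0.27 for Nrp2 in Aged vs Control, 0.11 for Nrp1 in Aged+CF vs Aged, and -0.61, -0.16 and -0.049 for Vegfa, Flt1 and Kdr in Aged+CF vs Control. By limma they were -0.014 for Vegfb in Aged vs Control, 0.045 for Nrp1 in Aged+CF vs Aged and -0.0022 for Pgf in Aged+CF vs Control. Without 1 ovary, Nrp2 in Aged vs Control ranged from -0.11 to 0.081, Nrp1 in Aged+CF vs Aged from -0.23 to 0.077, and in Aged+CF vs Control Vegfa from -0.11 to 0.30, Vegfc from -0.11 to 0.053 and Pgf from -0.077 to 0.16. The cause was not tested.

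The groups share replicate numbers, but same-numbered ovaries deviated together with r between -0.175 and 0.166, so the numbers do not pair them. With the replicate block, Nrp1 was 0.23 in Aged+CF vs Aged and Pgf -0.050 in Aged+CF vs Control. With 3 Aged+CF and 3 Aged ovaries, a fold of 1.5 was within the intervals of Vegfa, Flt1, Kdr, Pgf and Nrp2.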

Other observations

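The balance of the ligands differed between ovaries of the same group. Vegfa had 0.458, 0.482, 0.497 and 0.306 times the FPKM of Vegfb in Control replicates 31 to 34, 0.811, 1.09 and 0.369 times in Aged replicates 31, 33 and 34, and 0.496, 0.603 and 0.364 times in Aged+CF replicates 30, 32 and 34. Aged replicate 33 was the only ovary of the 10 with more Vegfa than Vegfb on this scale, and the groups overlapped. The 9 members summed to 547 to 628 CPM in Control, 661 to 941 in Aged and 672 to 734 in Aged+CF, so that the lowest ovary of either older group lay above the highest Control ovary.

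Lhcgr, the receptor of luteinizing hormone in theca, luteal and mature granulosa cells and a gene of the theca and luteal list, was at 234 to 785 CPM in Control, 1789 to 1967 in Aged and 304 to 536 in Aged+CF, and is named after its values were seen. It did not have the spread of Vegfa in Aged: replicate 34 was at 1789 CPM of Lhcgr beside 79.7 CPM of Vegfa. Its log2 fold change was 1.80 ± 0.36 (adjusted p = 0.0127) in Aged vs Control and -2.07 ± 0.40 (adjusted p = 0.15) in Aged+CF vs Aged in edgeR's quasi-likelihood test.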
